A study of Mus musculus with 4 samples.

Results

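The IFT-B core is the stable part of intraflagellar transport complex B, and its genes were taken by name: Ift22, Ift27, Ift46, Ift52, Ift74, Ift81, Ift88, Hspb11, Ttc26 and Ttc30b, 10 of the 21938 protein-coding genes annotated on GRCm38. The question was where RFX2 bound at their promoters in mouse testis, with a promoter taken as the stretch from 1000 bp upstream to 500 bp downstream of any annotated transcription start site (TSS). RFX2 ChIP-seq had been carried out on decapsulated testis of 2 independent wild type (WT) mice of mixed C57BL/6|129/Sv|FVB/N background. The ages were given as postnatal day 29 to 30 in the labels, whereas the study's text describes dissociated germ cells of younger animals. The 4 libraries were 2 RFX2 precipitations, called replicates 1 and 2, and 2 inputs without antibody, which entered only through the peak calling. All 4 libraries were WT, so the peaks were not compared with animals lacking RFX2. The study's RNA-seq of such animals was not used here. The peaks do not say in which testicular cells RFX2 was bound.

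RFX proteins are winged-helix transcription factors that bind the X-box, an inverted repeat, and are known from worms to mammals as regulators of genes for cilia. RFX2 is abundant in meiotic and early haploid male germ cells, which go on to build the sperm flagellum. Intraflagellar transport carries axonemal building blocks along the microtubules of a growing cilium or flagellum. Complex B travels outward with kinesin-2, and complex A and dynein-2 serve the return. Within the IFT-B core, IFT52 and IFT88 are central scaffold proteins, IFT46 and the TTC30 proteins bind to IFT52, and IFT74 and IFT81 form a coiled-coil pair that binds tubulin. IFT22 and IFT27 are small GTPases, HSPB11 (IFT25) is the partner of IFT27, and TTC26 (IFT56) is known for carrying proteins of ciliary motility.

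The values came from 3 peak lists. The lists of replicate 1 (39825 peaks) and replicate 2 (21274 peaks) gave each peak 1 value on a −log10 scale, without saying whether it stands for a p or a q. Their lowest values were 2.03 and 2.08. The combined list (2726 peaks, lowest −log10 p 43.2) also gave the fold enrichment over local background and the summit, the position of highest signal. Its peak names point to a call on pooled reads, so it is not independent of the replicate lists. The number of reads behind each peak is unknown.

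RFX2 peaks lay on the promoters of most IFT-B core genes. In the combined list 7 of the 10 genes had a promoter peak, against 5.26% of all protein-coding genes. In replicate 1 the count was 8 of 10 (14.0% of all genes), in replicate 2 it was 7 of 10 (11.3%), and overlapping promoter peaks in both replicates were present for 7 of 10 (8.77%). The same 7 genes, Ift22, Ift27, Ift52, Ift74, Ift81, Ttc26 and Ttc30b, had a promoter peak in every list. Ift88 had one in replicate 1 alone, and Ift46 and Hspb11 had none. Since the 10 genes were named with results of these data known, no test was made on these counts.

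The sequences under the summits show how the bound promoters differ. The most enriched word of 8 letters around all combined summits, ATGGCAAC, occurred within 100 bp of 40.5% of the summits and in 0.605% of flanking windows of the same length. Joined with its reverse complement it gives the palindrome GTTGCCATGGCAAC, which is used here as the X-box. A match was counted at no more than 3 mismatches on either strand, in the 200 bp centred on the summit. X-boxes in this sense were present in 75.4% of all 2726 combined peaks, in 58.9% of the 1003 combined peaks on promoters, in 1.06% of flanking windows and in 3.37% of 32851 RefSeq promoter windows of 300 bases. Of the 7 IFT-B core genes with a combined promoter peak, 4 had an X-box by this rule. Their sequences are shown with those of the Ttc30b paralogs, so that the mismatches can be compared by position. How often each mismatch occurs in X-boxes at other combined summits was not counted, and the Ttc30 copies are related sequences. Each line gives 30 bases of GRCm38 along the direction of transcription, with the 14 bases of the X-box in capitals, from chr2:163016986-163017015 (Ift52, plus strand), chr6:38381483-38381512 (Ttc26, plus strand), chr5:136908109-136908138 (Ift22, plus strand), chr2:75938426-75938455 (Ttc30b, minus strand), chr2:75981756-75981785 (Ttc30a1, minus strand) and chr2:75978182-75978211 (Ttc30a2, minus strand).
Ift52: tgtttcccGTTTCCATGGCAACcgttggcc
Ttc26: ccggcggcGTTGCCGTGGAAACggagctcg
Ift22: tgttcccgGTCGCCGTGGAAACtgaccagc
Ttc30b: gttggcctATTGCCTTGGAAACcaggatgc
Ttc30a1: gttacctaGTTTCCTTGGAAACtagcacgc
Ttc30a2: gttggcttGTTGCCATGGGAACaagcacac

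Counting positions from 1 at the 5′ end of the X-box, with the letter of the palindrome first, Ift52 differed by G4T alone. Ttc26 differed by A7G and C11A, Ift22 by T3C, A7G and C11A, and Ttc30b by G1A, A7T and C11A. Read along transcription, C11A occurred in 3 of the 4 core genes with an X-box, and A7G in 2 of them. The palindrome reads the same on both strands, so G4T of Ift52 is C11A read on the other strand. Without regard to strand, all 4 had this change. Its share among the X-boxes at all combined summits was not counted, so it is not shown to be particular to the core. Among the paralogs, Ttc30a1 differed by G4T, A7T and C11A, and Ttc30a2 by C11G alone. The X-boxes of Ift52 and Ift22 lay outside annotated transcripts, and those of Ttc26 and Ttc30b in untranslated exons. At a stricter limit of 2 mismatches only Ift52 and Ttc26 had an X-box.

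Ift27, Ift74 and Ift81 had a combined promoter peak without an X-box, with 6, 6 and 5 mismatches at best within the 200 bp at the summit and 5 at best in each whole peak. The sequence at their summits is shown in the next lines. The capitals mark exact matches to GTTGCC or its reverse complement GGCAAC, the outer 6 letters of the X-box on either side. Such a match was present at 56.8% of promoter summits, 69.1% of all combined summits, 5.72% of flanking windows and 12.5% of the RefSeq promoter windows, and any X-box with an intact side counts here as well. Of the 7 genes, 4 had at least 1 such match, namely Ift27, Ift52, Ift81 and Ttc26, a share near that of all promoter summits. Whether these matches take part in the binding was not tested. Ift27 had 1 such match, at bases +17 to +22 from the TSS, in the untranslated first exon and centred 6.5 bp from the summit (chr15:78174073-78174102, minus strand). Ift81 had 2, facing away from each other with 1 base between them, at −11 to −6 and −4 to +1 (chr5:122614509-122614538, minus strand). The first of these, with the 2 bases before it, spells ATGGCAAC, the most enriched word at the combined summits. Ift74 had none, and the 100 bases before its TSS, which hold its summit, are printed without capitals (chr4:94614391-94614490, plus strand).
Ift27: gggttgatgatgGTTGCCaggagcctgttt
Ift81: tcaccgcatGGCAACcGTTGCCaaggagcg
Ift74: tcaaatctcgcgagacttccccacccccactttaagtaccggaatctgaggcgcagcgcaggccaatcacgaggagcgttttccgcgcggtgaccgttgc

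The arrangement at Ift81 holds the letters of both sides of the X-box in reversed order. A search made after this was seen looked for GGCAAC followed by GTTGCC with 0 to 3 bases between them. It found them in 5 of all 2726 summits and in 2 of the 1003 on promoters. The summit of Ift81, from which the pattern was taken, is itself 1 of the 2 on promoters. Among the 32851 RefSeq promoter windows of 300 bases there were 2. The GC content of the 200 bp at the summit ranged over the 7 genes from 46.5% at Ttc30b to 66.5% at Ift81, around a median of 59% for all promoter summits. Ift74 had the most CpG dinucleotides of the 7, with 20 against a median of 12 over all promoter summits.

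Ttc26, encoding the motility cargo protein IFT56, had the highest peak of the group in the combined list and in replicate 2. Its value was 158 in replicate 1 (rank 260), 88.7 in replicate 2 (rank 162) and 218 as −log10 p in the combined list (rank 190 of 2726), with a fold enrichment of 35.4. The combined peak covered 1514 bp (chr6:38380862-38382375), the widest of the group, with the summit at +5 bp from the nearest TSS. The X-box began 22 bp downstream of the 5′-most TSS, and its centre lay 23.5 bp from the summit. Counted from the TSS nearest to it, the X-box lay upstream, at −34 to −21 bp.

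Ift22, a small GTPase gene, followed closely. It reached 159 in replicate 1 (rank 252), 79.5 in replicate 2 (rank 211) and 187 in the combined list (rank 297), with a fold enrichment of 25.3. In replicate 1 it stood just above Ttc26, and in replicate 2 below it, so that the order of the pair was not the same in both replicates. The combined peak (chr5:136907649-136908804, 1156 bp) had its summit at −46 bp, and the X-box lay between −33 and −20 bp.

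**Figure D1:**
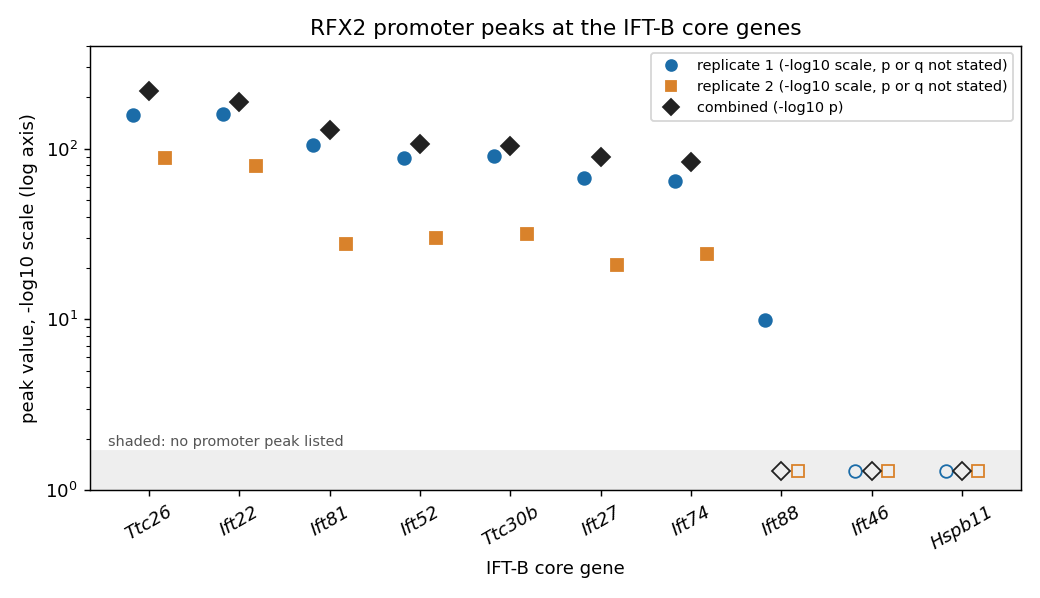
Peak value on a −log10 scale (log axis) of the promoter peak of each IFT-B core gene in replicate 1 (circles), replicate 2 (squares) and the combined list (diamonds), with open symbols in the shaded band where no promoter peak was listed. Ttc26 and Ift22 stand above the other genes in every list, at 158 and 159 in replicate 1 and 88.7 and 79.5 in replicate 2, and Ift88 is listed in replicate 1 alone.

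The coiled-coil partners Ift81 and Ift74 were unlike in peak height. Ift81 had 105 in replicate 1 (rank 607), 27.5 in replicate 2 (rank 1166) and 128 in the combined list (rank 671), with a fold enrichment of 22.0. Ift74 had 64.4 in replicate 1 (rank 1339), 24.2 in replicate 2 (rank 1408) and 83.8 in the combined list (rank 1322), with a fold enrichment of 15.9. Ift81 stood above Ift74 in both replicates, by a wide margin in replicate 1 and a narrow one in replicate 2. Both summits were close to the TSS, at −14 bp for Ift81 (chr5:122614352-122615056, 705 bp) and −9 bp for Ift74 (chr4:94613891-94615081, 1191 bp).

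Ift52, which encodes a scaffold protein, was the only one of the 7 whose summit lay well away from a TSS. The value was 88.4 in replicate 1 (rank 835), 29.9 in replicate 2 (rank 1077) and 107 in the combined list (rank 935), with a fold enrichment of 16.8. The combined peak (chr2:163016411-163017407, 997 bp) had its summit 364 bp upstream of the nearest TSS, and the X-box with its single mismatch lay at −360 to −347 bp. A window that begins 250 bp before the start, as in the RefSeq promoter table, does not contain this site. The next line gives 100 bases around this summit, with the X-box in capitals, because it is the most complete X-box of the group and lies in no annotated exon (chr2:163016940-163017039, plus strand).
Ift52: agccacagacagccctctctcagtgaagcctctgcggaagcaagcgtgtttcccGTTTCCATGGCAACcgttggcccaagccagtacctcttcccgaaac

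Ttc30b, encoding a TPR protein that binds IFT52, had values near those of Ift52. They were 90.6 in replicate 1 (rank 796), 31.6 in replicate 2 (rank 1002) and 104 in the combined list (rank 969), with the same fold enrichment of 16.8. The combined peak was the narrowest of the 7 (chr2:75938287-75938880, 594 bp), with its summit 88 bp downstream of the only annotated TSS. Ift52 and Ttc30b changed places between lists, Ttc30b being higher in both replicates and Ift52 in the combined list.

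Ift27, the GTPase that pairs with HSPB11, had the lowest value of the 7 in replicate 2. Its values were 67.8 in replicate 1 (rank 1224), 20.9 in replicate 2 (rank 1651) and 89.2 in the combined list (rank 1213), with a fold enrichment of 12.9. The combined peak (chr15:78173517-78174581, 1065 bp) had its summit at +13 bp. The same peak also met the promoter of Gm49694, a long non-coding RNA gene on the other strand whose start lies 354 bp from that of Ift27, so the peak cannot be given to either gene alone. Ift27 also has 2 X-boxes with 3 mismatches each in the promoter windows of TSSs further inside the gene, 1 of them at −7 to +6 bp of such a TSS, and neither lay in a peak of any list. They are 5227 and 4532 bp from the promoter peak. None of the other 6 peaks met the promoter of another annotated gene.

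**Figure D2:**
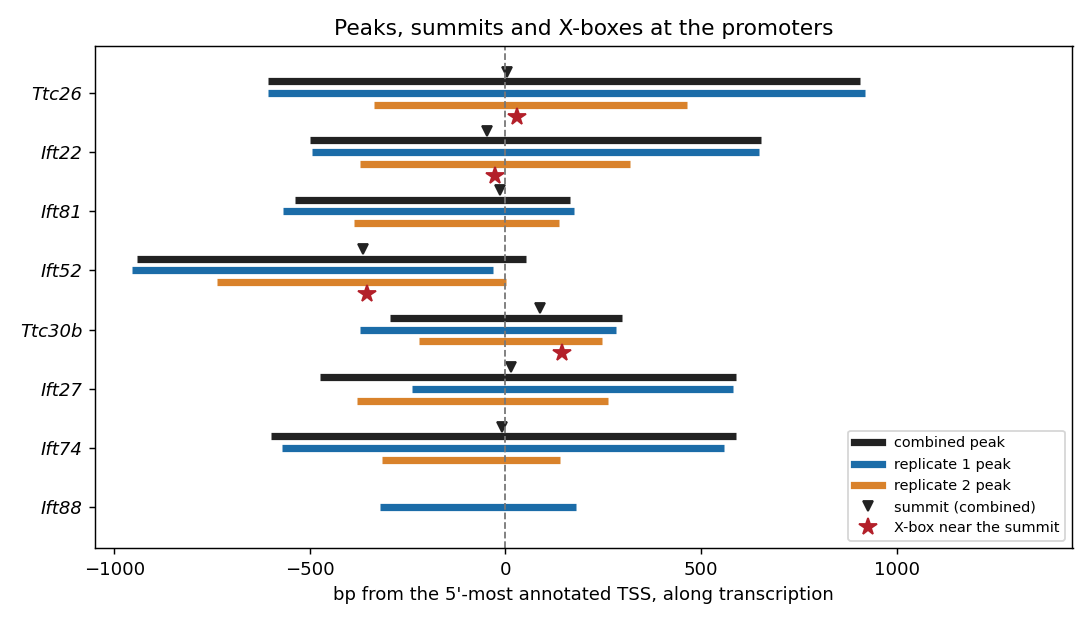
Extent of the promoter peaks of 8 IFT-B core genes in bp from the 5′-most annotated TSS (dashed line), with downstream to the right, for the combined list (black), replicate 1 (blue) and replicate 2 (orange). Triangles mark combined summits and stars X-boxes: 6 of the 7 summits lie between −46 and +88 bp, and that of Ift52 lies at −364 bp.

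As a group the 7 genes were typical of genes with a combined promoter peak in height. The median −log10 p was 107, against 106 over the 1153 genes with such a peak, and the median rank was 935 against 943. All 7 lay in the upper 50% of the combined list. So did most of the 1153 genes, whose median percentile was 65.4 against 65.7 for the 7. Above the median −log10 p of the 1153 genes lay 4 of 7. The fold enrichment had a median of 16.8 against 15.0, with 6 of 7 above that median, and the width one of 1065 bp against 884 bp.

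The values of replicate 1 were above those of replicate 2 at all 7 genes, as at most genes with a promoter peak in all lists. The ratio of the replicate 1 value to the replicate 2 value was 1.78 for Ttc26, 2.00 for Ift22, 2.66 for Ift74, 2.87 for Ttc30b, 2.96 for Ift52, 3.24 for Ift27 and 3.82 for Ift81. The median was 2.87, against 2.05 over 1138 genes with a promoter peak in all lists, whose middle 50% ran from 1.53 to 2.67. The values depend on sequencing depth, which is unknown, and reads that also mapped to the human genome had been removed from a second sequencing run of replicate 2 only. The part of either in these ratios was not tested. In position the replicate peaks overlapped at all 7 genes. For Ift22, Ift74, Ift81, Ttc26 and Ttc30b the replicate 2 peak lay wholly within the replicate 1 peak, and for Ift52 and Ift27 95.5% and 77.9% of it did. The replicate 1 peaks were wider, and the overlap covered from 40.5% of them at Ift74 to 76.6% at Ift52. The centres of the replicate peaks lay from 59 bp (Ttc30b) to 231 bp (Ift27) apart.

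**Figure D3:**
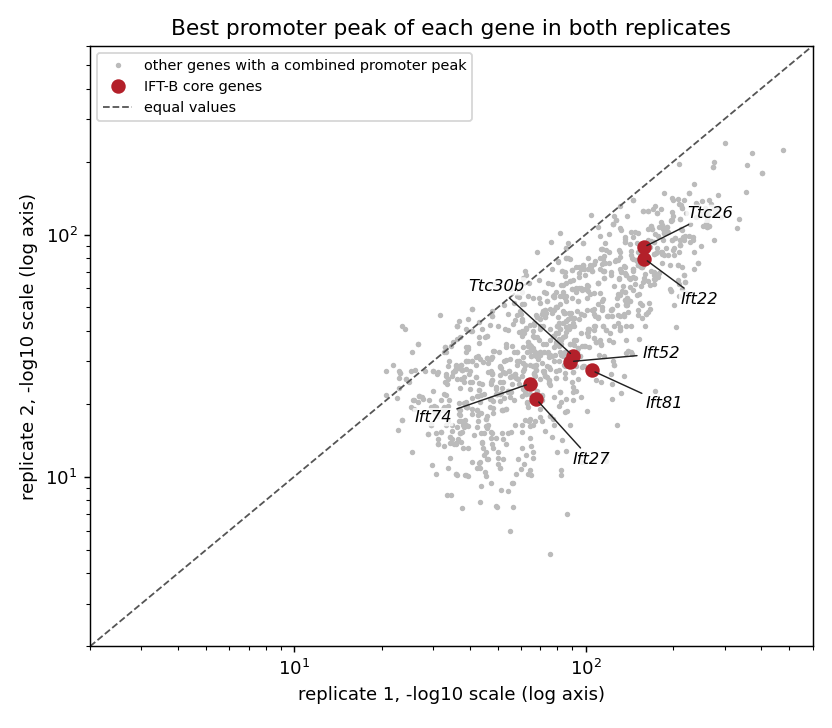
Value of the best promoter peak in replicate 1 (x) and replicate 2 (y), both on a −log10 scale with log axes, for each gene with a combined promoter peak and a peak in both replicates (grey) and the 7 IFT-B core genes (red). All 7 lie below the dashed line of equal values, as do most grey genes. Of the 7, Ttc26 (ratio 1.78) is nearest to the line and Ift81 (ratio 3.82) farthest.

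Ift88, which encodes the other central scaffold protein, had a promoter peak in replicate 1 alone. The promoter peak had a value of 9.88 (rank 8599 of 39825), covered 501 bp (chr14:57423742-57424242) and was centred 70 bp upstream of the TSS. Its value was far below the lowest of the other 7 in that list, 64.4 at Ift74. In replicate 2 the nearest peak was a weak one of 6.01 inside the gene, 32495 bp from the nearest TSS, and in the combined list the nearest lay 209414 bp away, with Lats2 as its nearest gene. An X-box with 2 mismatches, T2A and A13G, is present in an intron of Ift88 from 306 to 319 bp downstream of the nearest TSS, 170 bp beyond the edge of the replicate 1 peak and in no peak of any list. It is shown because it has fewer mismatches than those of Ift22 and Ttc30b, which lie under combined peaks (chr14:57424404-57424433, plus strand).
Ift88: ggcttggcGATGCCATGGCAGCagtgaaac

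Ift46, whose product joins the core through IFT52, had no promoter peak in any list. Its nearest replicate 1 peak had a value of 7.27 (rank 10658) and lay 8531 bp from the nearest Ift46 TSS, with Arcn1 as its nearest gene. The nearest peaks of replicate 2 and of the combined list lay 42348 bp and 205805 bp away, with Phldb1 and Cxcr5 as their nearest genes. Hspb11 had no promoter peak either. The nearest replicate 1 peak, at 3.64 (rank 29330), lay within the gene 17240 bp from the nearest TSS. The nearest combined peak was a high one, with a −log10 p of 128 (rank 675), but lay 28826 bp from the nearest Hspb11 TSS and 15244 bp from that of Dio1, its nearest gene. The replicate 2 peak at the same place had a value of 40.4. No X-box was present in the promoter windows of Ift46 or Hspb11.

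Ift46 and Hspb11 share an arrangement that the other 8 genes lack. Ift46 starts 63 bp from Arcn1 and Hspb11 61 bp from Lrrc42, each on the opposite strand, whereas for the other 8 the nearest divergent coding start was at least 11247 bp away. This was looked for after the peaks were known. Over all genes the shares ran the other way. A combined promoter peak was present for 13.5% of the 1489 genes with a divergent coding start within 1000 bp. It was present for 4.66% of the 20449 genes without such a start. For the IFT-B core the counts were 0 of 2 and 7 of 8. A peak that met the promoters of both genes of a divergent pair was counted for each of them. How far this raised the share of 13.5% was not tested, so the shares do not show whether RFX2 bound such pairs more often.

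The Ttc30b gene belongs to a set of closely related copies, with Ttc30a1 and Ttc30a2, within 46.1 kb of chromosome 2. Each has 1 exon, and Ttc30a1 ends 76 bp before the start of Ttc30a2. Reads that mapped to several places had been discarded, so reads from stretches that are identical between copies were lost and the peak heights of all 3 are uncertain. The copies were unlike in height. Ttc30a2 had 337 in replicate 1 (rank 9), 116 in replicate 2 (rank 73) and 369 in the combined list (rank 9), with a fold enrichment of 69.5. Ttc30a1 had 30.1 in replicate 1 (rank 3098), 18.8 in replicate 2 (rank 1911) and 44.0 in the combined list (rank 2664), with a fold enrichment of 11.6. Ttc30b stood between them in every list. The combined peak of Ttc30a2 (chr2:75977805-75979081) also reached into the 3′ end of Ttc30a1. Its summit, at −107 bp from the Ttc30a2 TSS, lay inside Ttc30a1.

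The annotated starts of the 3 copies differ, at 178 bp before the first coding base in Ttc30b, 230 bp in Ttc30a1 and 4 bp in Ttc30a2. Counted from the first coding base the X-boxes nearly coincide. They lay at −40 to −27 bp in both Ttc30b and Ttc30a1 and at −37 to −24 bp in Ttc30a2. The copy with the highest peak, Ttc30a2, had 1 mismatch to the X-box, and the other copies, themselves unlike in height, had 3 each. The X-box centre lay 80.5 bp from the combined summit in Ttc30a2, 56.5 bp in Ttc30b and 25.5 bp in Ttc30a1.

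**Figure D4:**
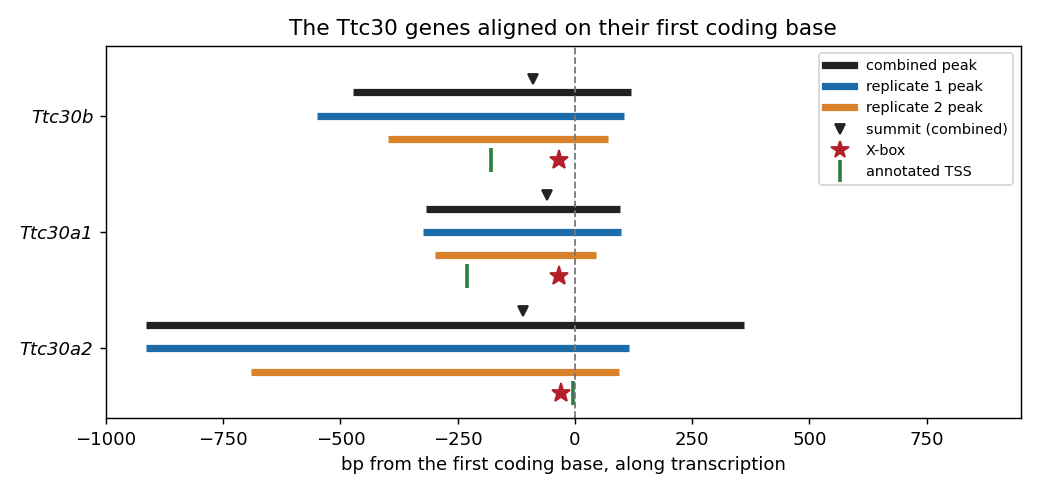
Peaks of Ttc30b, Ttc30a1 and Ttc30a2 in bp from the first coding base (dashed line), with downstream to the right, for the combined list (black), replicate 1 (blue) and replicate 2 (orange). Triangles mark combined summits, stars X-boxes and green ticks the annotated TSS: the X-boxes line up within 3 bp although the annotated starts lie 178, 230 and 4 bp before the first coding base.

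The other genes of intraflagellar transport were counted by the same rule. Combined promoter peaks were present for 4 of 6 peripheral IFT-B genes, 3 of 7 genes of IFT-A with Tulp3, 5 of 5 dynein-2 genes and 0 of 5 kinesin-2 genes, together 12 of 23. In replicate 1 the counts were 5 of 6, 6 of 7, 5 of 5 and 3 of 5, and in replicate 2 they were 4 of 6, 6 of 7, 5 of 5 and 2 of 5. In the combined list, −log10 p ranged from 83.8 to 218 over the IFT-B core, from 49.2 to 129 over the peripheral IFT-B genes, from 46.1 to 207 over IFT-A with Tulp3 and from 100 to 284 over dynein-2. The fold enrichment ranged from 12.9 to 35.4 over the IFT-B core, from 7.53 to 12.7 over the peripheral IFT-B genes, from 8.45 to 14.2 over IFT-A with Tulp3 and from 9.40 to 34.0 over dynein-2, so that the core overlapped in range with IFT-A and dynein-2. X-boxes were present at 8 of the 12 summits outside the core, against 4 of 7 within it. No test was made of any difference between these lists.

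**Figure D5:**
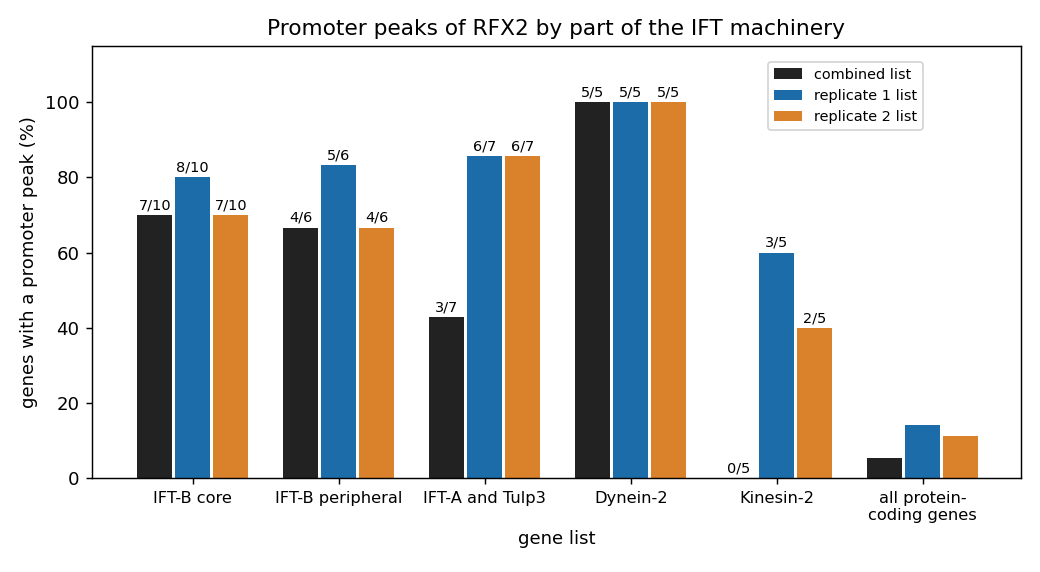
Share of genes with an RFX2 promoter peak (%) in the combined list (black), replicate 1 (blue) and replicate 2 (orange) for each list of the transport machinery and for all protein-coding genes, with counts above the bars. The IFT-B core reaches 7, 8 and 7 of 10 genes against 5.26%, 14.0% and 11.3% of all genes, and kinesin-2 has 0 of 5 in the combined list.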

How the data were processed

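RFX2 ChIP-seq peaks were analysed from 2 WT testis samples, and no test was run, since there was 1 condition with 2 replicates. Per the submitters' processing notes, the authors used CASAVA 1.8.2, Bowtie 0.12.7 and MACS2 2.0.10.20130520 on GRCm38. Per the study's methods, multiply mapped reads were dropped and peaks were called against input. The deposited replicate lists hold 1 −log10 value per peak (p-value or q-value, and which call, not stated). The deposited combined list holds −log10 p, −log10 q, the fold enrichment as a ratio, a score that restates −log10 p, and the summit. Its peak numbers run to 29491. The methods describe calls with default settings and at a relaxed p-value threshold, then a selection of peaks reproducible between replicates by irreproducible discovery rate (IDR). Whether the combined list is the result of that selection is not stated. No columns lay outside these samples.

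Promoters came from GENCODE mouse release 21 on GRCm38 patch 6, whereas the deposited file names give Ensembl release 70. RefSeq promoter windows (GRCm38) matched 8 of 10 members, not Ift81 and Ttc30b. Peaks and promoters were joined at an overlap of at least 1 bp. For replicate peaks, which have no summit, the centre was used. Distances are signed along transcription. Rank 1 is the highest −log10 value. Python 3.11.15, pandas 2.3.3 and pysam 0.24.0 were used, and the overlap and X-box searches were tested on simulated data. Named genes were all members, genes sharing a member's peak, the nearest genes of the nearest peaks, and the Ttc30 paralogs. Arcn1 and Lrrc42 as divergent neighbours were named after the values were seen. Members and lists were chosen with earlier results of these data known.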

Additional observations from a re-analysis of the deposited data

How the results depend on the processing

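Of 25 alternatives for the counts and the median rank, 22 left the value within its limit and 3 moved it. Ranked by width instead of −log10 p, the 7 combined promoter peaks had a median percentile of 74.8 instead of 65.7. Genes with an X-box numbered 4 in the main search, 2 at no more than 2 mismatches and 1 in 200 bp around the peak centre. At no more than 4 mismatches or over the whole peak there were 4. Leaving out 1 replicate gave 7 to 8 genes in place of 7 with peaks in both, and Ift88 is the gene added without replicate 2. A reciprocal overlap of 50% left 6 genes, without Ift74. A promoter from 500 bp upstream to 50 bp downstream, the 5′-most TSS alone, the peak centre in the promoter, or the top 50% of each list kept 7, 8 and 7 genes. With the peak centre in place of the summit, positions became −17 bp for Ift22, 58 bp for Ift27, −445 bp for Ift52, −5 bp for Ift74, −186 bp for Ift81, 89 bp for Ttc26 and 2 bp for Ttc30b. No paired analysis was possible because no result comes from a test and the inputs hold no values. Read depth is unknown, which limits any statement about genes without a listed peak: a weaker peak under a list's lowest value would not appear.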

Other observations

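Within the bodies of the IFT-B core genes, away from their promoters, the replicate lists held 8 peaks and the combined list none. Their values were low, from 3.64 to 6.29. They lay in Ift74, Ift81, Ift88, Hspb11 and Ttc26, and no gene had a body peak at the same place in both replicates.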
